A study of Oryctolagus cuniculus with 16 samples.

Results

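Matrix metalloproteinases (MMPs) are zinc-dependent enzymes that cut the proteins of the extracellular matrix, and tissue inhibitors of metalloproteinases (TIMPs) block them by occupying the active site. Most MMPs are secreted as inactive proenzymes, in which a cysteine of the propeptide holds the catalytic zinc until it is displaced, a mechanism called the cysteine switch. In growing bone they take part in the resorption of mineralized matrix, the replacement of calcified cartilage and the entry of vessels. The genes described here are the 7 MMPs *MMP1*, *MMP2*, *MMP3*, *MMP9*, *MMP12*, *MMP13* and *MMP14* and the 3 TIMPs *TIMP1*, *TIMP2* and *TIMP3*. They were found by their symbols in the gene table, where all 10 of the 10 were listed among 20255 genes.

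The tissue was the femoral head of rabbits. In the Perthes group (n = 5), wild-type rabbits 8 weeks old had the femoral neck ligated and the ligamentum teres cut, which obstructs the blood flow to the epiphysis. The genotype label of these animals names the disease, although it was made by surgery. The control group (n = 3) was labelled wild type, and the study calls these rabbits healthy. The age of the controls, a sham operation and the time from surgery to sampling were not given in the sources used here, so the groups can differ in these as well. Each library was taken as 1 rabbit, as the titles say. Total RNA libraries held from 26757087 to 29461482 counts. Levels are given as CPM, which are counts per 1000000 counts of a library, adjusted by the TMM factors of edgeR (these equalize the bulk of the genes between libraries). No gene lengths were at hand, so that a level is compared between rabbits and never between genes.

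The 10 genes were chosen with their differences between these groups known. Their values are therefore a description, and no p-value is given for any of them. All 10 passed the low-count filter of edgeR and all had a mean above that of the controls, with a median log2 fold change of 1.41. The median over the 15305 tested genes was 0.02. In 7 of the 10, every rabbit of the Perthes group lay above every control. This was the case in 11.2% of all tested genes, and nothing is read from the comparison, as the genes were picked on it. The overlapping genes were *MMP9*, *TIMP1* and *TIMP3*.

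**Figure D1:**
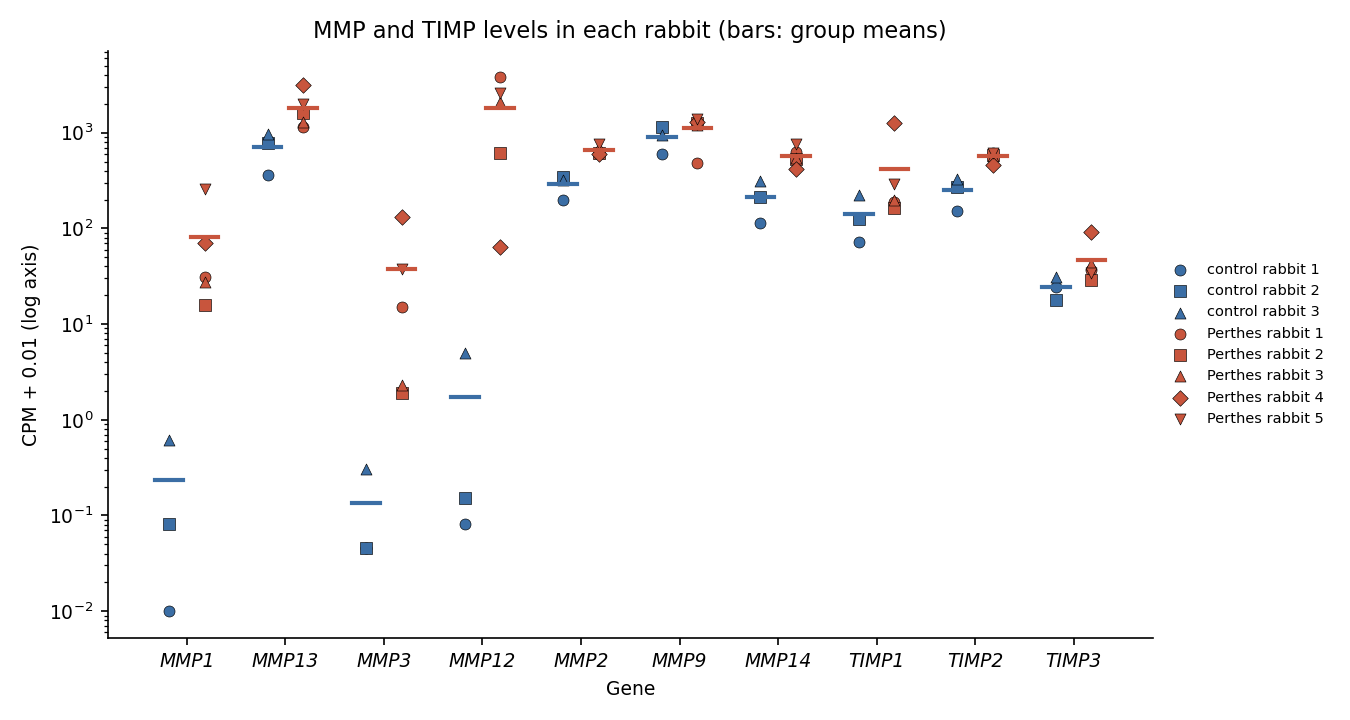
CPM of the 10 genes in each of 3 control rabbits (blue) and 5 rabbits with Perthes disease (red) on a log axis, with 0.01 added so that a count of 0 can be drawn; horizontal bars are group means. *MMP1*, *MMP3* and *MMP12* lie below 5 CPM in every control, while *MMP9* has overlapping groups.

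The collagenases cut the triple helix of fibrillar collagens. *MMP1* (gene 100009110), the interstitial collagenase, was at 31.3, 15.9, 27.8, 69.6 and 257 CPM in Perthes rabbits 1 to 5 and at 0, 0.0705 and 0.599 CPM in control rabbits 1 to 3. The lowest Perthes value was thus above the highest control, and rabbit 5 alone held 65.3% of the counts of the Perthes group. The controls held 20 counts together, 18 of them in rabbit 3. The log2 fold change was 8.43 (SE 1.503). It was 7.29 without Perthes rabbit 5 and 10.98 without control rabbit 3. *MMP13* (100008685), collagenase 3, is known from hypertrophic cartilage and osteoblasts and was abundant in every femoral head. It was at 1149, 1612, 1281, 3124 and 1979 CPM in the Perthes group and at 358, 777 and 979 CPM in the controls, so that the groups did not overlap. Rabbit 4 stood highest, and the log2 fold change was 1.38 (SE 0.44), or 1.09 without it.

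*MMP3* (100009111), the stromelysin, cuts proteoglycans and fibronectin and can activate other proMMPs. It was at 15.2, 1.91, 2.31, 131 and 37.7 CPM in Perthes rabbits 1 to 5 and at 0.0357, 0.0353 and 0.299 CPM in the controls, which held 11 counts in all. Its Perthes values spanned 68.6-fold, the widest range of the 10 genes, and rabbit 4 held 68.3% of the group's counts. The log2 fold change was 8.17 (SE 1.95), with 6.77 without rabbit 4 and 9.88 without control rabbit 3. Its counts were not whole numbers in 4 of the 8 libraries, as were those of its relative *MMP10*, so that the authors' quantification shared some reads among genes. *MMP12* (100009559), the macrophage metalloelastase, was at 3785, 619, 2078, 64.5 and 2607 CPM in the Perthes group. The controls were at 0.0715, 0.141 and 4.99 CPM, and control rabbit 3 held 150 of their 156 counts. The ranking of the Perthes rabbits differed from that of *MMP3*: rabbit 4 was the lowest for *MMP12* and the highest for *MMP3*. The log2 fold change of *MMP12* was 10.03 (SE 2.07), 10.34 without Perthes rabbit 4 and 14.01 without control rabbit 3.

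The gelatinases carry fibronectin type II repeats and cut denatured and basement membrane collagen. In the annotation of the gene table, *MMP2* and *MMP9* are the 2 genes of the 7 with that domain, while all 7 carry the hemopexin-like domain and the cysteine switch. *MMP2* (100009000), gelatinase A of stromal cells, was at 625, 615, 705, 593 and 772 CPM in the Perthes group and at 199, 347 and 322 CPM in the controls. Its groups did not overlap and its Perthes rabbits lay within 1.30-fold of each other. The log2 fold change was 1.19 (SE 0.23). *MMP9* (100008993), gelatinase B, is made by osteoclasts and stored in neutrophil granules. Perthes rabbits were at 483, 1267, 1205, 1308 and 1390.4 CPM and controls at 605, 1146 and 937 CPM. The groups overlapped, as Perthes rabbit 1 was below all 3 controls, and the log2 fold change was 0.34 (SE 0.36), or 0.12 without control rabbit 1 and 0.55 without control rabbit 2.

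*MMP14* (100009598) encodes a collagenase anchored in the plasma membrane that activates proMMP2 at the cell surface with *TIMP2* as the docking partner. It was at 624, 537, 545, 418 and 763 CPM in Perthes rabbits and at 113, 213 and 311 CPM in controls. No Perthes rabbit was as low as a control, and the log2 fold change was 1.44 (SE 0.34).

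Of the inhibitors, *TIMP2* (100008689) was at 611, 589.8, 567, 458 and 608 CPM in the Perthes group and at 152, 272 and 327 CPM in the controls. The groups were apart, with a log2 fold change of 1.18 (SE 0.27). *TIMP1* (100009047), a secreted inhibitor induced by many cytokines, was at 189.9, 162, 199, 1255 and 291 CPM against 71.8, 125 and 226 CPM. Rabbit 4 held 59.1% of the Perthes counts, and 3 of the other 4 Perthes rabbits were below control rabbit 3. The log2 fold change of 1.57 (SE 0.77) became 0.58 without rabbit 4. *TIMP3* (100008690), the inhibitor that binds to the matrix, was at 36.8, 29.1, 42.6, 90.7 and 34.4 CPM in Perthes rabbits and at 24.3, 17.9 and 31.1 CPM in controls. Only rabbit 2 was below the highest control, and the log2 fold change of 0.93 (SE 0.39) became 0.55 without rabbit 4.

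The members differed more in their spread than in their direction. Among the 5 Perthes rabbits the coefficient of variation was 11.1% for *TIMP2*, 11.3% for *MMP2* and 22.0% for *MMP14*. It was 144% for *MMP3*, 126% for *MMP1*, 112% for *TIMP1* and 82.3% for *MMP12*. Rabbit 4 was the highest of the group for *MMP3*, *MMP13*, *TIMP1* and *TIMP3* and the lowest for *MMP2*, *MMP12*, *MMP14* and *TIMP2*. Rabbit 5 was the highest for *MMP1*, *MMP2*, *MMP9* and *MMP14*, and rabbit 2 the lowest for *MMP1*, *MMP3*, *TIMP1* and *TIMP3*. Among the controls, rabbit 3 was the highest for 8 of the 10 genes and rabbit 1 the lowest for 8.

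**Figure D2:**
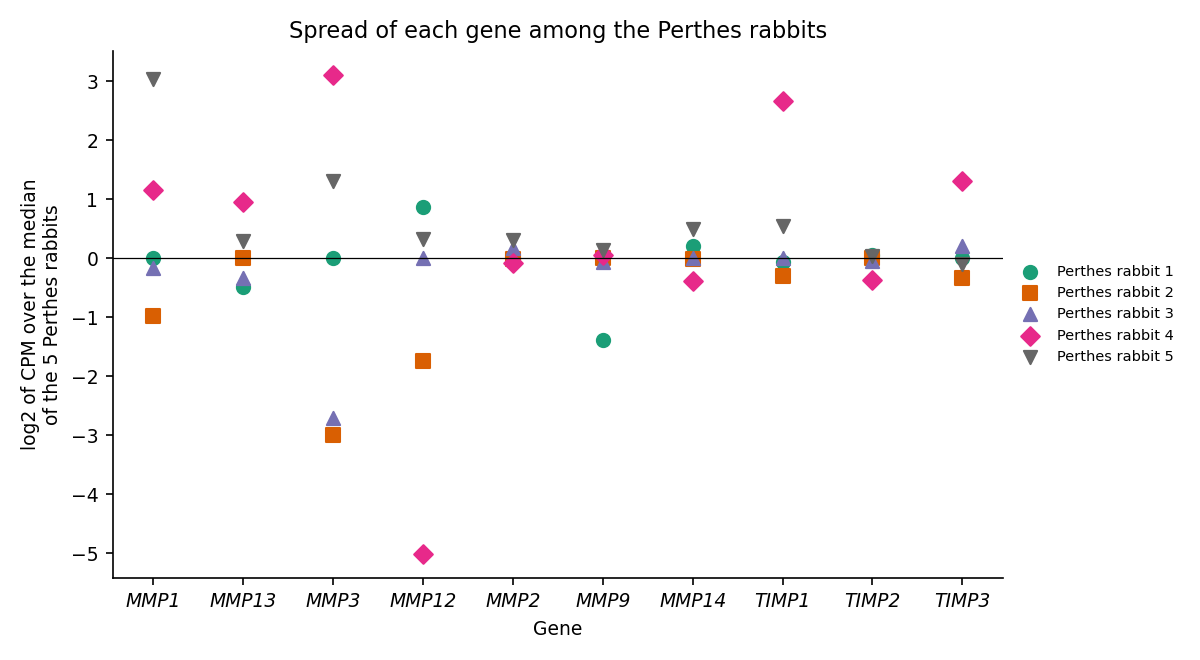
Each point is the CPM of 1 of the 5 Perthes rabbits over the median of those rabbits, on a log2 scale, for the 10 genes. Rabbit 4 (diamonds) lies above the median for *MMP3*, *MMP13*, *TIMP1* and *TIMP3* and 5 units below it for *MMP12*, whereas the rabbits almost coincide for *MMP2* and *TIMP2*.

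Likeness of pattern was measured as the root mean square difference of log2 CPM over the 8 rabbits, after each gene was centred on its own mean. The group difference on which the members were picked is part of this measure. Among the members the closest pairs were *MMP2* and *TIMP2* at 0.16, *MMP14* and *TIMP2* at 0.22, and *MMP2* and *MMP14* at 0.30. Other genes were closer to each of these 3, with *LRP1* at 0.096 from *MMP2*, *FSTL1* at 0.12 from *TIMP2* and *RASL12* at 0.13 from *MMP14*, and none of the 3 was among the 5 nearest genes of another. Over all tested genes, the closest to *MMP12* were *GPNMB*, a glycoprotein of macrophages and osteoclasts, at 2.35, *MMP1* at 2.50 and *ASB5* at 2.65. These distances are larger than those of the member pairs above, so that none of these genes was near *MMP12* in that sense. *GPNMB* was at 5491, 4187, 3992, 314 and 4236 CPM in Perthes rabbits 1 to 5, and rabbit 4 was thus the lowest for it too. Rabbit 2 was above rabbit 3 for *GPNMB* but below it for *MMP12*, at 619 against 2078 CPM. The closest to *TIMP1* were *SDC4* at 0.28, a heparan sulfate proteoglycan, and *JAM2* and LOC100343802 at 0.31 each. *SDC4* was at 464 CPM in Perthes rabbit 4 and from 78.3 to 137 CPM in the other Perthes rabbits. *VASN* at 0.21, *SH3RF2* at 0.22 and *TMEM38A* at 0.22 were the closest to *MMP9*.

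Several cell types make these enzymes, and in whole tissue fewer cells of a type and less RNA per cell cannot be told apart. Of 10 macrophage markers 8 were listed, none of them at 0 in every rabbit, and their summed CPM ranged from 537 to 1924 in the Perthes group and from 568 to 1157 in the controls. Perthes rabbit 4, the lowest of its group for *MMP12*, had the lowest sum. Of the 8 markers 6 had a positive log2 fold change, and the median of the 8 was 1.25. The 4 called higher were *CD68*, *CD14*, *CSF1R* and *MRC1*, and 0 were called lower, beside 6.21% and 8.86% of all tested genes. *MARCO* and *ITGAM* had negative log2 fold changes of -2.19 and -0.78 (adjusted p = 0.0542 and 0.289 from edgeR), and *CD163* was at 0.19. *ITGAM*, which neutrophils express as well, made up 732 of the 1157 CPM of control rabbit 1. The 8 osteoclast markers, all detected, summed to 1632 to 4596 CPM in Perthes rabbits and 776 to 1360.0 CPM in controls. Rabbit 4 again had the lowest sum of its group. *CTSK* made up most of each sum, at 991 to 3773 CPM in Perthes rabbits and 404 to 831 CPM in controls. All 8 markers had a positive log2 fold change, and 3 were called higher and 0 lower. *ACP5*, *CALCR* and *NFATC1* overlapped between the groups, and Perthes rabbit 1, not rabbit 4, was the lowest of its group for them. The 7 listed of 8 chondrocyte markers summed to 142860 CPM in Perthes rabbit 4, to between 35221 and 77868 CPM in the other Perthes rabbits and to between 46147 and 65734 CPM in the controls. Fibroblast and stromal markers (8 of 8 listed) summed to 4239 to 6940 CPM in the Perthes group and 1172 to 3217 CPM in the controls. The part of these cell types in the levels of the members was not tested.

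The counts of the 7 MMPs were summed and divided by those of the 3 TIMPs. A sum gives long and abundant genes the most weight, so it serves only to compare rabbits. MMP counts made up 0.605% ± 0.143 (SD, n = 5) of a Perthes library and 0.220% ± 0.0784 (SD, n = 3) of a control library. The ratio was 8.01, 5.98, 7.22, 3.16 and 8.37 in Perthes rabbits 1 to 5 and 5.14, 5.98 and 4.38 in control rabbits 1 to 3. It overlapped between the groups, since Perthes rabbit 4 was below every control. The group means were 6.55 ± 2.10 (SD, n = 5) and 5.17 ± 0.804 (SD, n = 3). With *MMP12* left out of the sum the means were 4.41 ± 1.06 (SD, n = 5) and 5.16 ± 0.808 (SD, n = 3), so that the order of the means turned. *MMP12* made up 56.4%, 13.3%, 35.6%, 1.13% and 33.4% of the MMP counts of the Perthes rabbits and at most 0.195% in a control. *MMP9* made up 7.20% to 27.2% in Perthes rabbits and 36.7% to 47.5% in controls.

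**Figure D3:**
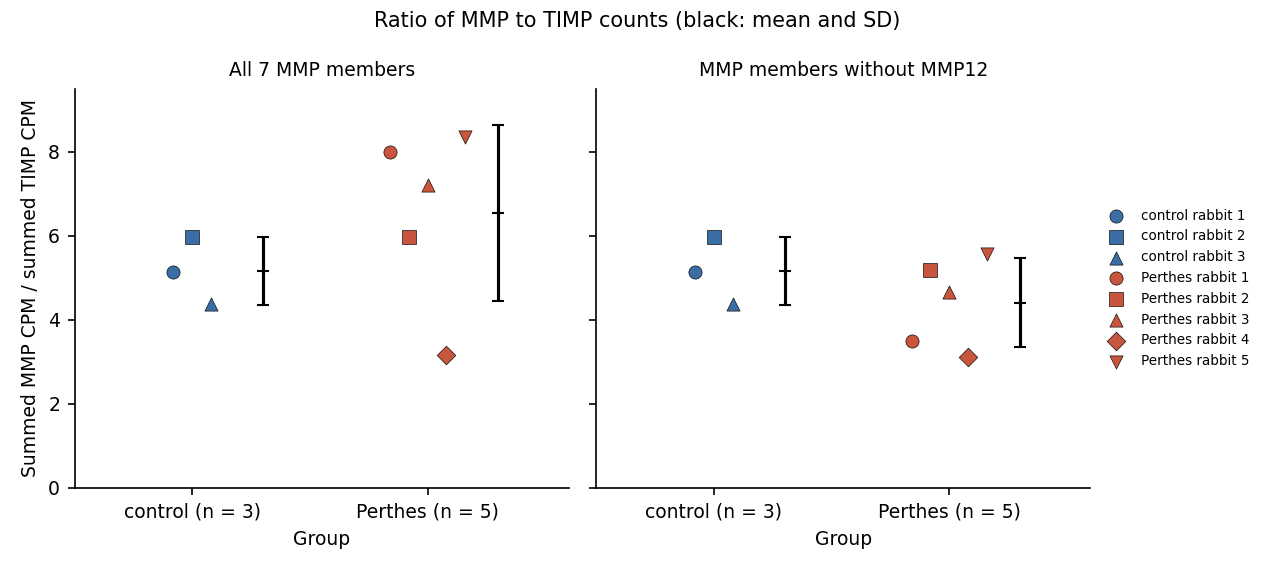
Ratio of summed MMP CPM to summed TIMP CPM in each rabbit, with all 7 MMPs (left) and without *MMP12* (right); black marks are the group mean and SD. The groups overlap in both panels, and the Perthes mean of 6.55 falls to 4.41 when *MMP12* is left out.

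In the RefSeq gene order of another rabbit assembly, mOryCun1.1, *MMP1*, *MMP3*, *MMP12* and *MMP13* lie, in this order, at the end of a run of MMP genes that also holds *MMP7*, *MMP20*, *MMP27*, *MMP8* and *MMP10*, with pseudogenes in between. This set of genes was looked up after the values of the members were seen. *MMP8*, the neutrophil collagenase, and *MMP27* lie in the same run and fell in the Perthes group, by 3.63 (SE 0.95) and 3.10 (SE 0.84) on the log2 scale, with adjusted p-values of 0.0343 and 0.0386 from edgeR. These calls were lost in 6 and 7 of 13 alternatives. Control rabbits 1 to 3 had 112, 52.9 and 60.4 CPM of *MMP8* and Perthes rabbits 1 to 5 had 0.304, 12.8, 3.30, 12.95 and 1.09 CPM. *MMP10*, between *MMP8* and *MMP1* in that order, had at most 0.133 CPM in a control and 1.67 CPM in Perthes rabbit 4, and was too low to be tested. Of the 5 neighbouring genes on either side of the run, 8 of 10 were tested. *BIRC2*, an inhibitor of apoptosis, was the 1 with an adjusted p below 0.05, at -0.76 (SE 0.20, adjusted p = 0.0320 from edgeR), and the others lay between -0.54 for LOC103350677 and 0.99 for *YAP1*.

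**Figure D4:**
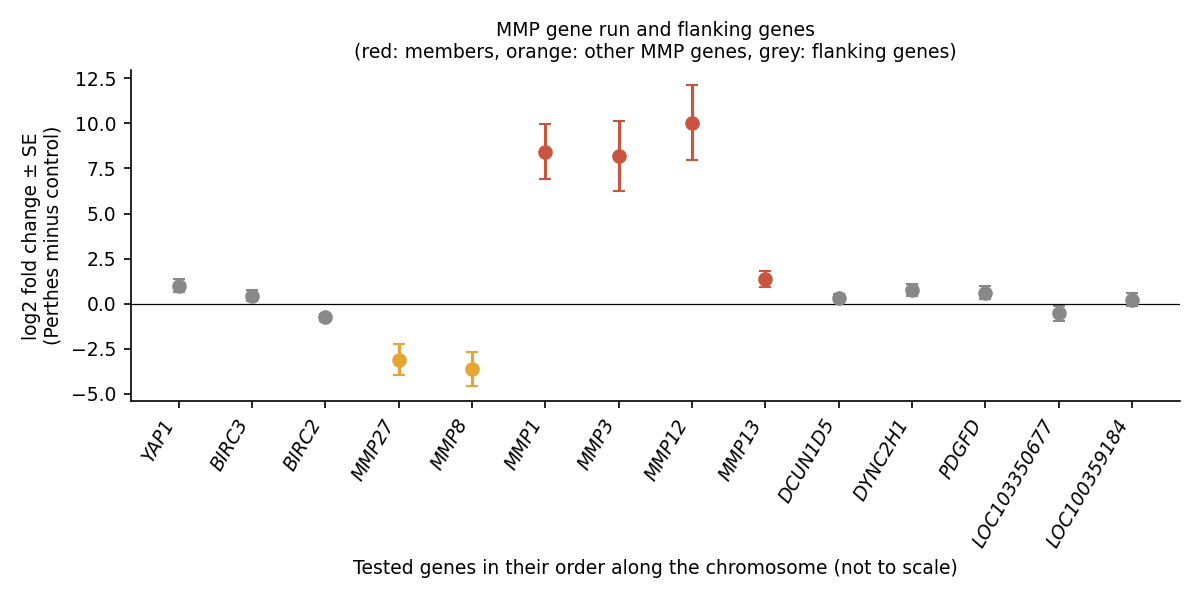
Log2 fold change (Perthes minus control) with its SE for tested genes in chromosomal order, evenly spaced; members are red, other MMP genes orange and flanking genes grey. *MMP1*, *MMP3* and *MMP12* lie between 8.17 and 10.03, *MMP27* and *MMP8* at -3.10 and -3.63, and the flanking genes between -0.76 and 0.99.

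The rest of the pathway was described with 9 lists holding 143 genes, of which 127 were listed and 116 were tested. At an adjusted p below 0.05 from edgeR, 35 of the 116 were higher in the Perthes group and 6 were lower. These are 30.2% and 5.17%, beside 6.21% and 8.86% of all tested genes, and the median log2 fold change was 0.68. The lists were chosen with earlier results of these data known, so that nothing is read from the comparison of these shares. The counts changed with the rabbits in the fit, as did the calls over all tested genes. They were 20 and 2 without Perthes rabbit 3, and 21 and 1 without Perthes rabbit 5. Without control rabbit 1 they were 11 and 0, and without control rabbit 2 they were 0 and 0. Over all tested genes 2307 were called with every rabbit, and 1031, 901, 257 and 0 in these fits, in the same order. At an unadjusted p below 0.05, edgeR gave 44 and 7 in that last fit, beside 3722 of all its 15594 tested genes in either direction. With every rabbit, 4883 of the 15305 tested genes had such a p-value in edgeR. The unadjusted counts of single lists below stand beside that share.

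Of the other MMPs 10 were tested, and 3 rose while 4 fell, beside 6.21% and 8.86% of all tested genes. *MMP19*, which cuts basement membrane proteins, was at 83.5 ± 26.3 CPM in the Perthes group (SD, n = 5) and at 13.9 ± 4.21 CPM in the controls (SD, n = 3), so that it rose by 2.59 on the log2 scale (SE 0.32, adjusted p = 0.0118 from edgeR). *MMP11*, a stromelysin activated inside the cell by furin, rose by 1.47 (SE 0.27, adjusted p = 0.0136 from edgeR) and *MMP17*, held at the membrane by a lipid anchor, by 1.15 (SE 0.20, adjusted p = 0.0133 from edgeR). No Perthes rabbit overlapped a control for these 3 genes. Besides *MMP8* and *MMP27*, *MMP21* fell by 2.71 (SE 0.51, adjusted p = 0.0142 from edgeR) and *MMP25*, the leukolysin of neutrophils, by 2.71 (SE 0.60, adjusted p = 0.0208 from edgeR). Control rabbit 1 had 22.8 CPM of *MMP25* and the other controls 5.82 and 5.42 CPM. Without that rabbit the log2 fold change was -1.69, and the call was lost in 5 of 14 alternatives. A second gene identifier that the table describes as matrix metalloproteinase-25, LOC103345668, fell by 3.07 (SE 0.56, adjusted p = 0.0136 from edgeR), and reads of such copies can be divided between them. Of 9 markers of neutrophils and their precursors 6 were listed, *MMP8* among them, and summed to 3622 to 13645 CPM in controls and 18.1 to 1104 CPM in Perthes rabbits. All 6 had a negative log2 fold change and 3 were called lower, beside 8.86% of all tested genes. The part of these cells in the levels of *MMP8*, *MMP9* and *MMP25* was not tested. *MMP15*, *MMP16* and *MMP28* had log2 fold changes of 0.37, 0.35 and -0.41, with adjusted p-values of 0.274, 0.464 and 0.587 from edgeR. *MMP20* and *MMP24* had at most 7 counts in any library and were not tested.

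In the list of other inhibitors, 0 of the 4 tested genes passed in either direction in edgeR or in DESeq2, and 1 had an unadjusted p below 0.05 in edgeR. *TIMP4* was at 1.21 ± 0.856 CPM (SD, n = 5) and 1.36 ± 0.750 CPM (SD, n = 3), with a log2 fold change of -0.16 (SE 0.59). *RECK*, a membrane-anchored inhibitor of MMPs, had a log2 fold change of 0.55 (SE 0.23, adjusted p = 0.130 from edgeR). The proteoglycans *SPOCK1* and *SPOCK2*, whose place in this list does not mean that each inhibits MMPs, were at -0.20 (SE 0.26) and -0.60 (SE 0.27). *SPOCK3* had under 0.25 CPM in every rabbit.

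ProMMPs are activated by plasmin and by proprotein convertases. In the plasminogen system 4 of 11 tested genes rose and 1 fell, beside 6.21% and 8.86% of all tested genes. *PLAU*, the urokinase that turns plasminogen into plasmin, was at 204, 101, 167, 63.2 and 168 CPM in Perthes rabbits 1 to 5 and at 24.2, 18.8 and 26.6 CPM in the controls. It rose by 2.60 (SE 0.39, adjusted p = 0.0118 from edgeR). The tissue activator *PLAT* rose by 1.63 (SE 0.27, adjusted p = 0.0128 from edgeR), and the plasminogen receptor subunits *ANXA2* and *S100A10* by 1.25 and 1.24, with adjusted p-values of 0.0284 and 0.0488 from edgeR. The call of *ANXA2* was lost in 6 of 14 alternatives and that of *S100A10* in 9. *CPB2*, a carboxypeptidase that slows fibrinolysis, fell by 3.25 (SE 0.71, adjusted p = 0.0205 from edgeR). Of 5 tested convertases and other activators *FURIN*, which activates proMMP14, was the 1 that rose. It was at 193 ± 34.9 CPM in the Perthes group (SD, n = 5) and at 100.4 ± 16.7 CPM in the controls (SD, n = 3), which is 0.94 on the log2 scale (SE 0.21, adjusted p = 0.0208 from edgeR). The call of *FURIN* was lost in 6 of 14 alternatives.

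The ADAM and ADAMTS enzymes are relatives of the MMPs that shed membrane proteins and cut proteoglycans. Of 25 tested genes 9 rose and 1 fell, beside 6.21% and 8.86% of all tested genes, with a median log2 fold change of 0.88. *ADAMTS15*, an aggrecanase, was at 14.4 ± 2.22 CPM in the Perthes group (SD, n = 5) and at 2.67 ± 1.14 CPM in the controls (SD, n = 3), and its log2 fold change was 2.43 (SE 0.30, adjusted p = 0.0118 from edgeR). *ADAMTS20* rose by 5.05 and *ADAM33* by 4.48, both from under 0.3 CPM in every control. *ADAMTS16* had 72 counts in the Perthes group and 1 in the controls, a ratio of 44.3 with a 95% exact counting interval from 7.70 to 1774. *ADAM10*, the major sheddase, fell by 0.86 (SE 0.20, adjusted p = 0.0228 from edgeR), a call that was lost in 6 of 14 alternatives.

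Substrates of the MMPs had a positive log2 fold change in 21 of 21 tested genes, as had 51.6% of all tested genes. Over all tested genes edgeR called 6.21% higher and 8.86% lower. This list too was chosen with earlier results known, and nothing is read from the comparison. The median was 1.04, 9 rose and 0 fell at an adjusted p below 0.05 from edgeR, and DESeq2 called 12 and 0 (13 and 0 at an unadjusted p below 0.05 in edgeR). The basement membrane collagens *COL4A1* and *COL4A2* rose by 1.68 (SE 0.25) and 1.78 (SE 0.26), each with an adjusted p of 0.0118 from edgeR. *ELN*, the elastin that *MMP12* is named for cutting, was at 11.6, 15.1, 25.7, 8.59 and 9.67 CPM in the Perthes group and at 1.68, 1.80 and 2.89 CPM in the controls. It rose by 2.73 (SE 0.43, adjusted p = 0.0121 from edgeR). *COL3A1*, a fibrillar collagen, rose by 2.34 (SE 0.67, adjusted p = 0.0474 from edgeR), a call that was lost in 10 of 14 alternatives, and its log2 fold change was 3.68 without control rabbit 3. The major bone and cartilage collagens *COL1A1* and *COL2A1* had log2 fold changes of 0.15 (SE 0.46) and 0.34 (SE 0.50) and did not pass.

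Receptors that dock or clear MMPs rose in 4 of 13 tested genes and fell in 0, beside 6.21% and 8.86% of all tested genes. Their median log2 fold change was 0.76 (5 and 0 were called in DESeq2, and 5 and 0 had an unadjusted p below 0.05 in edgeR). The 4 were *SDC1* at 1.51, *CD63* at 1.39, *LRP1* at 1.20 and *ITGAV* at 1.05, with adjusted p-values from 0.0118 to 0.0313 from edgeR. The call of *ITGAV* was lost in 5 of 14 alternatives. *LRP1*, which takes up MMPs bound to TIMPs, was at 3571 ± 432 CPM (SD, n = 5) and 1549 ± 317 CPM (SD, n = 3). Of 10 tested cytokines that induce MMP genes, edgeR called 0 in either direction, DESeq2 called 2 higher, and 4 were higher at an unadjusted p below 0.05 in edgeR. Of 17 tested transcription factors that act on MMP genes 5 rose and 0 fell, while DESeq2 called 6 and 0, and 7 and 1 had an unadjusted p below 0.05 in edgeR. *ATF3*, a stress-induced partner of AP-1 proteins, was at 184, 63.7, 159, 13.5 and 109 CPM in Perthes rabbits 1 to 5 and at 2.79, 3.98 and 12.1 CPM in the controls. Rabbit 4 was the lowest of its group, as for *MMP12*, and the log2 fold change was 4.07 (SE 0.90, adjusted p = 0.0210 from edgeR). *MITF*, a regulator of osteoclast and macrophage genes, rose by 2.05 (adjusted p = 0.0363 from edgeR) with overlapping groups, and the AP-1 subunit *JUN* rose by 1.45 (adjusted p = 0.0201 from edgeR). *HIF1A*, the oxygen-regulated subunit of HIF1, rose by 1.38 (adjusted p = 0.0455 from edgeR). The calls of *MITF* and *HIF1A* were lost in 7 and 8 of 14 alternatives.

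**Figure D5:**
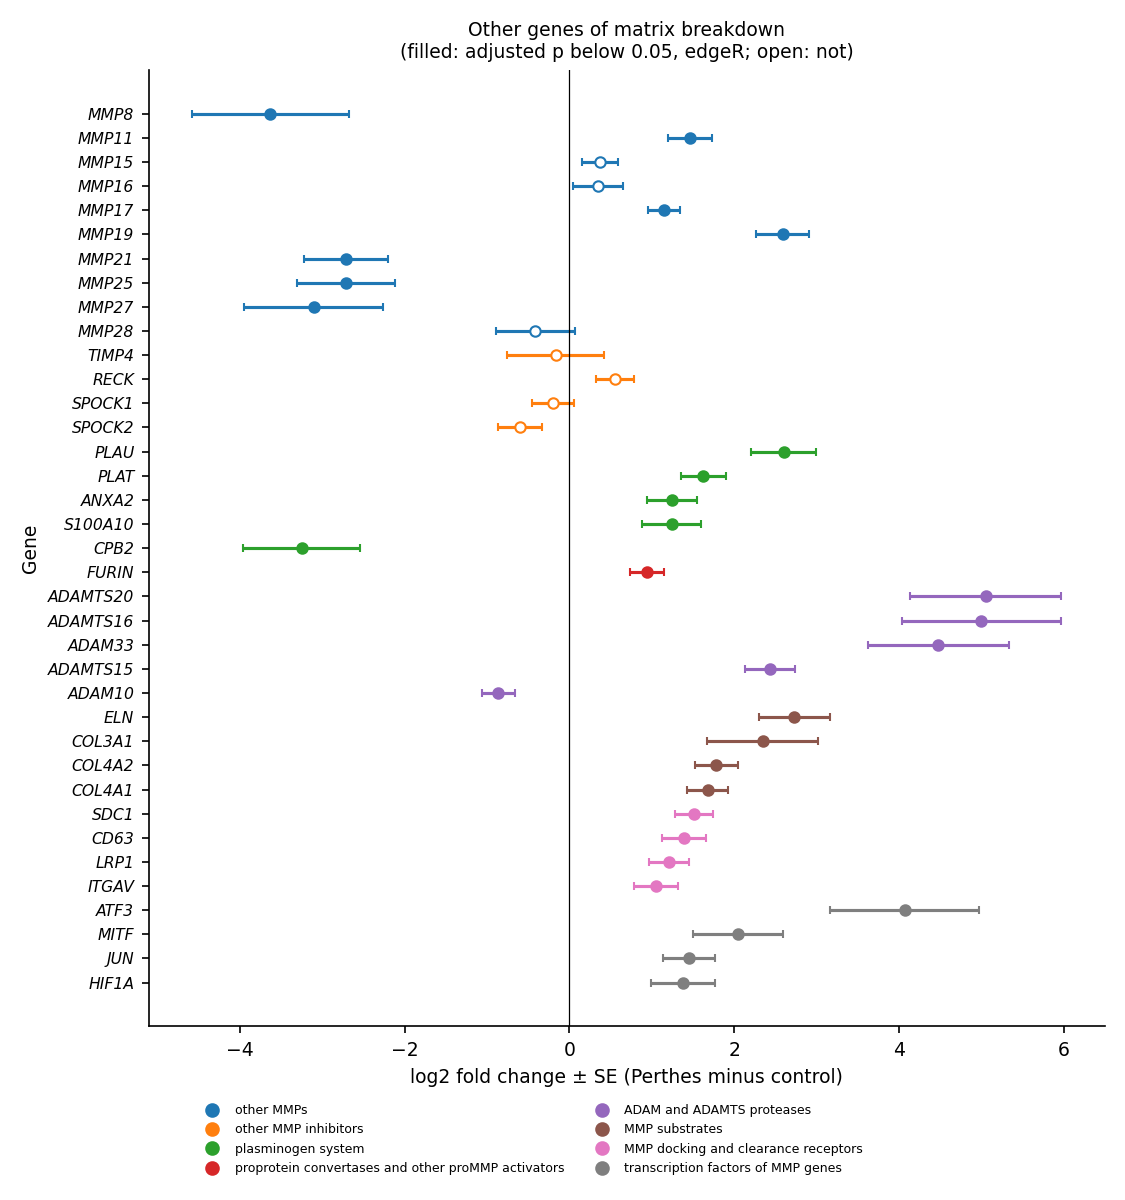
Log2 fold change (Perthes minus control) with its SE for the named genes of 8 lists that were tested; filled points have an adjusted p below 0.05 from edgeR and open points do not. *MMP8*, *MMP21*, *MMP25*, *MMP27*, *CPB2* and *ADAM10* lie below 0 with filled points, and all 4 tested genes of the list of other inhibitors are open.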

How the data were processed

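Total RNA was depleted of ribosomal RNA and sequenced as directional libraries in 5 Perthes and 3 control rabbits. The authors mapped filtered reads with HISAT2 2.0.4 while RSEM 1.1.17 and HTSeq 1.99.2 served for quantification, and they deposited expected counts per gene, unnormalized and mostly whole. Another 8 columns repeat these values and were left out, and the small RNA table was not used. The third control has the code 3 and a title that says 2; the code was used.

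Expected counts were rounded. TMM scaling, the filterByExpr filter and the quasi-likelihood F-test of edgeR 4.0.16 (run in R 4.3.3) compared the groups, and p-values were adjusted by Benjamini-Hochberg over 15305 genes; SE is the log2 fold change over the square root of F. CPM uses the TMM factors, and log2 CPM a prior count of 2. Libraries held at least 26757087 counts, so that 1 count is well under 1 CPM, and intervals cover counting error only. The thresholds of the study (log2 fold change beyond 2, adjusted p below 1e-05), DESeq2 1.42.0, other scalings and filters, a block for the replicate number, and leaving out each rabbit were alternatives. On simulated counts of 15305 genes, edgeR recovered 74.5% of 200 genes that were shifted by 2 on the log2 scale, with 5 wrong calls. DESeq2 recovered 86.5% of them with 47 wrong calls, and its larger counts are to be read with that. More genes were called in the data, 2307 by edgeR, than were shifted in the simulation.

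The members and lists were chosen with earlier results of these data known. Named were the 10 members, every other listed MMP and inhibitor, and up to 4 genes per direction with the largest called change in each other list. For *MMP12*, *MMP9* and *TIMP1*, the 3 genes of nearest pattern were named. *LRP1* as a neighbour of *MMP2*, *FSTL1*, *RASL12*, *COL1A1*, *COL2A1*, the single macrophage and osteoclast markers and LOC103345668 were chosen after their values were seen. List genes were matched by symbol, or by gene ID through RefSeq (16307 of 20255 IDs matched). Further marker lists were of osteoblasts (3123 to 4755 CPM summed in Perthes, 1477 to 3430 in controls), synovial lining (146 to 575, 288 to 1248), erythroid cells (32.5 to 2260, 4817 to 5450), endothelium (279 to 388, 283 to 342) and skeletal muscle (0.487 to 2.38, 0.388 to 9.48).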

Additional observations from a re-analysis of the deposited data

Results flagged for a closer look

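In groups of 5 Perthes rabbits, the gap between the farthest rabbit and its nearest neighbour was compared with the whole range, for 52 genes and ratios. The cutoff marks about 1 in 20 groups of independent, normally distributed values, and 8 were marked here. CPM need not be so distributed and all groups hold the same 5 rabbits, so that the number marked cannot be set against chance. Perthes rabbit 4 was far above the others for *TIMP1* at 1255 CPM and *MMP3* at 131 CPM. It was also marked as the highest for *TIMP3* at 90.7 CPM and for *MMP10* at 1.67 CPM. For *TIMP2* it was marked as the lowest at 458 CPM, although the others lay not far above, at 567 to 611 CPM. Perthes rabbit 5 was far above the others for *MMP1* at 257 CPM. Perthes rabbit 1 was far below them for *MMP9* at 483 CPM and above them for *ADAMTS16* at 1.08 CPM.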

How the results depend on the processing

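The median log2 fold change of the 10 members stayed positive at 1.18 to 1.42 over 6 other fits and at 1.101 to 1.76 with 1 rabbit left out, and no member changed sign in any fit. Requiring at least 10 counts in every sample removed *MMP1*, *MMP3* and *MMP12*. The mean log2 ratio of MMP to TIMP counts was 0.27 higher in Perthes rabbits, less than the pooled SD between rabbits of 0.49, and 0.16 to 0.52 higher with 1 rabbit left out. In the fit that took replicate numbers as a block, 0 pathway genes were called higher and 0 lower in edgeR, against 35 and 6 (42 and 7 at an unadjusted p below 0.05), and the log2 fold change of *MMP3* was 5.20. Of all 15305 tested genes 0 were called in that fit, so every call is lost there. An unadjusted p below 0.05 was found in edgeR for 3152 of the 15305 genes in that fit. Same-numbered rabbits had a mean correlation of deviations of -0.13 (3 pairs), against 0.03 for the 12 other pairs. So few pairs cannot decide whether the rabbits were paired, and the main fit took no pairs. At the thresholds of the study 0 and 0 were called in edgeR (54 and 8 at an unadjusted p below 0.05) and 7 and 0 in DESeq2. The smallest adjusted p of all tested genes in edgeR was 0.0118, so that no gene could pass there. With at least 10 counts in every sample 2 were called lower. That filter removed *MMP8*, *MMP21*, *MMP27* and *CPB2*, each of which had under 10 counts in a Perthes rabbit. With 1 rabbit left out between 0 and 37 pathway genes were called higher and between 0 and 8 lower. Of all tested genes, 0 to 2690 were called in these fits. DESeq2 called 46 and 7 of the pathway genes, and 3617 genes over the whole table. Signs turned for *MMP28* (0.17 without control rabbit 2, down to -0.67 with another rabbit left out), *TIMP4* (0.06 without Perthes rabbit 1, 0.38 without control rabbit 2, down to -0.65) and *SPOCK1* (0.14 without control rabbit 3, down to -0.42), none of which had been called. The causes were not tested.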
